A study of Mus musculus with 12 samples.

Results

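The 4 arrays of mouse embryos homozygous for the whirligig allele of Chd7 (Chd7Whi/Whi) were compared with the 4 arrays of wild-type embryos (Chd7+/+), which are 8 of the 12 arrays of the study, taken by the genotype in the labels. All embryos were female, at embryonic day 9.5 and of a mixed C3HeB/FeJ background. They came from matings between heterozygous carriers of the whirligig line and were dissected away from their yolk sacs. The other 4 arrays hold Chd7Whi/+ embryos of the same age, sex and background, and their values are given beside the others as a description. Per the labels, each genotype has 4 biological replicates. Which embryos shared a litter is not stated. The design text asks which genes change without functional Chd7 when neural crest cells migrate. RNA was taken from whole embryos, so fewer cells of a type and less RNA per cell cannot be told apart.

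Chd7 is a chromatin remodeller of the chromodomain helicase family that uses ATP to move nucleosomes, and it is found at many enhancers. Mutations of the human gene cause CHARGE syndrome, with defects of the eye, heart, ear, choanae and cranial nerves, and mice that lack Chd7 die in mid-gestation. At this stage, neural crest cells leave the neural tube for the face, the pharyngeal arches and the sensory ganglia, the first neurons send out axons, and the first somites start to make muscle.

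Each array reports the brightness of a labelled probe, and a level below is the log2 of that brightness minus the 75th percentile of the same array. A level of 0 is therefore the brightness at that percentile, and a difference of 1 is a 2-fold step. The share of probes well above background ranged from 69.2% to 75.7% over the arrays. Correlations over all tested genes were 0.990 to 0.995 among homozygous arrays, 0.990 to 0.994 among wild-type arrays and 0.986 to 0.992 between the genotypes. The 3 slides each held all genotypes, but position 1 on the slide held wild-type replicates 1, 2 and 4 alone, and position 3 was the only one to hold both genotypes (homozygous replicates 1 and 3, wild-type replicate 3). Values by array are given in the order of replicates 1 to 4, and these numbers are only names. The gene table linked no probe with Chd7, so no level is given under that name.

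The tissue markers of a whole embryo were well above background on all 8 arrays: Sox2, Pax6 and Sox1 of the neural tube, Sox10 and Foxd3 of the neural crest, Meox1, Tcf15 and Pax3 of the somite, Nkx2-5, Myl7 and Myh7 of the heart, Kdr, Cdh5 and Pecam1 of endothelium, and the embryonic globins. Of the defining markers of cells from outside the embryo, the trophoblast genes Tpbpa, Prl2c2 and Prl8a2 did not pass the filter on dim probes. Other genes of that list did: 14 of the 22 trophoblast and decidua genes on the array were tested. Their median log2 fold change was 0.15, and none passed the test. Genes of the yolk sac visceral endoderm were present and varied widely within both genotypes. The median level of its 24 tested members, relative to the wild-type mean, was 2.69, 1.54, -0.93 and -0.50 on the homozygous arrays and -0.86, 1.39, 0.42 and -0.81 on the wild-type arrays. Homozygous replicates 1 and 2 and wild-type replicate 2 were thus high, and the genotypes overlapped. None of the 24 passed the test, while 22 were higher in value in homozygotes, with a median log2 fold change of 0.58 against 0.02 over all genes. Of all 22568 genes tested, 12068 were higher in value and 10500 lower. The part of this signal in the results below was not tested. Without homozygous replicate 1, which had the highest yolk sac signal, and heterozygous replicate 1, which had the lowest heart signal, 149 genes passed the test described next (36 higher, 113 lower), an exclusion chosen after seeing the data.

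In homozygous embryos, the genes that fell included members of the lists for skeletal muscle, neurons, axon guidance, cell adhesion and facial and limb mesenchyme. Fewer rose, among them Sox10, Foxd3 and Mt1. With limma, 305 of 22568 genes passed an adjusted p of 0.05 (Benjamini-Hochberg adjustment over all genes tested), 1.35% of those tested. Of these, 110 were higher in homozygotes (0.487% of genes tested) and 195 lower (0.864%), with median log2 fold changes of 0.76 and -0.995. A change of at least 2-fold was seen for 132 (0.585%), of which 37 were higher and 95 lower. The 8 arrays did not overlap between the genotypes for 304 of the 305, which choosing by a small p favours, and for 3177 of all 22568 genes tested. The plot of change against signal shows the widest spread among dim probes.

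**Figure D1:**
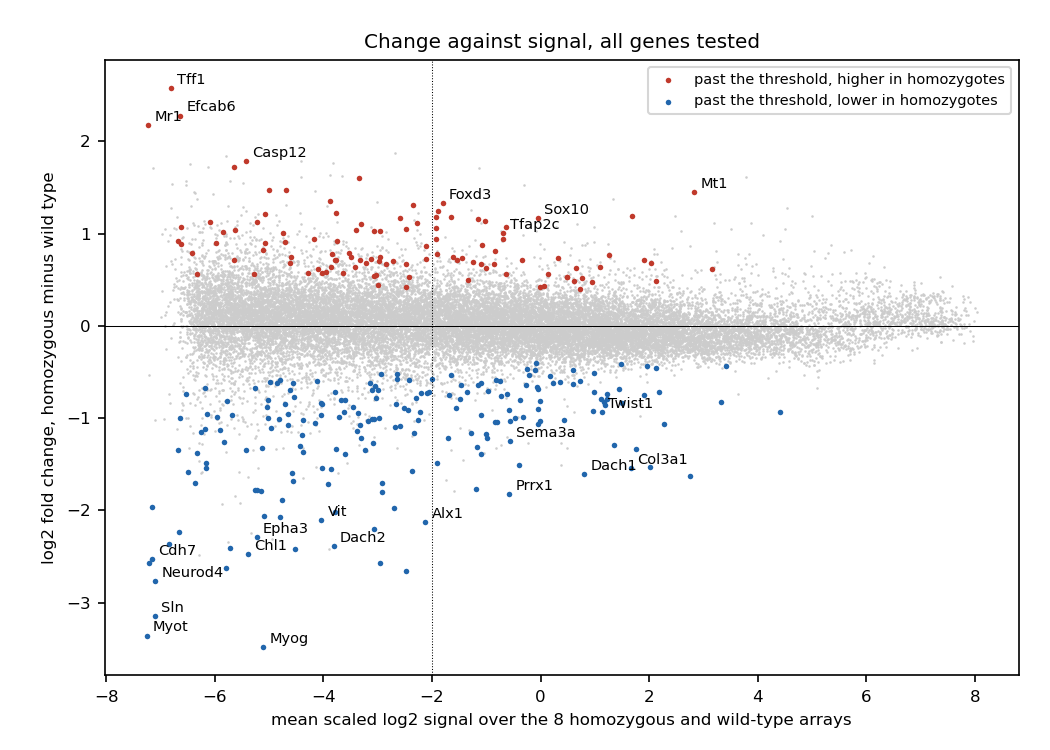
Log2 fold change (homozygous minus wild type) against the mean scaled log2 signal over the 8 arrays, for all 22568 genes tested. Red points (110) passed the threshold and were higher in homozygotes, blue points (195) were lower, and the dotted line at -2 separates the 9767 dim genes from the 12801 bright ones. Probes not well above background are drawn as measured, so positions such as those of Tff1 and Myot stand for bounds only, and to the right of the dotted line Prrx1 has the largest change of the labelled genes.

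The number of calls moved with single arrays. When homozygous replicate 1, 2 or 3 was left out, it was 149, 136 or 139, and leaving out wild-type replicate 1 or 4 gave 112 or 114. Increases alone numbered 67 without homozygous replicate 4 and 58 without wild-type replicate 2, and 187 without heterozygous replicate 4, which enters only through the spread. With the position on the slide as a block, most of the 305 calls were lost. Position 1 held wild-type arrays alone, so this block compares homozygous replicates 1 and 3 with wild-type replicate 3 only. Its changes are those within position 3, and its calls are not counted here because 1 wild-type array is left. Within position 3, and within each of the 3 slides, 305 of 305 kept their sign, in arrays that had also served to choose them. The labels' titles carry a number whose meaning they do not give, and with that number as a block 19 genes passed. Homozygous replicates 1 and 4 each stand alone with their number, so of the homozygous arrays only replicates 2 and 3 enter this comparison. With slide as a block 302 passed, of which 236 were among the 305.

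Several skeletal muscle genes fell. Of 42 tested members of the muscle list, 8 fell and none rose, and the list's median log2 fold change was -0.03, against 0.02 over all genes. The 8 make up 19% of the members, where 0.864% of all genes fell. Members and lists were chosen with earlier results of these data known, so this contrast, like those of the lists below, is a description and not a test. They were the myogenic factors Myog and Myf6, the contractile or sarcomere proteins Myh3 (embryonic myosin heavy chain), Tnnc2 (fast troponin C), Myot (a Z-disc protein) and Klhl41, the calcium pump regulator Sln, and the muscle subunit of cytochrome c oxidase Cox8b. RefSeq (build GRCm38.p6) gave a promoter, from 250 bases before to 50 after the start site, for 5 of the 8, shown here because these genes fell together. Capitals mark CAGCTG (a form of the E-box that myogenic factors bind), CTANNNNTAG (a core of sites for Mef2 factors) and TATAAA, searched on both strands. Each sequence runs 5′ to 3′ along the gene.
Myog, chr1:134289754-134290053, plus strand: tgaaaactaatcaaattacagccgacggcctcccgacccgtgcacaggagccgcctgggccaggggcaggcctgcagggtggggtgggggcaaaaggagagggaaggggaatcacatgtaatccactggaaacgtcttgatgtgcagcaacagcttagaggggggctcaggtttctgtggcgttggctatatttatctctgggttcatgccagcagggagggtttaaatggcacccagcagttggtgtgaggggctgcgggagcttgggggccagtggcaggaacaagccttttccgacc
Myh3, chr11:67078050-67078349, plus strand: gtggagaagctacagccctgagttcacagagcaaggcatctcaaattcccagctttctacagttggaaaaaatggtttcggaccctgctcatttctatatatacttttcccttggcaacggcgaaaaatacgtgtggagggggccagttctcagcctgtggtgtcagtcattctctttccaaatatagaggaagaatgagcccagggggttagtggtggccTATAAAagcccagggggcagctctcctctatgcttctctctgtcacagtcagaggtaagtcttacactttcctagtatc
Tnnc2, chr2:164779685-164779984, minus strand: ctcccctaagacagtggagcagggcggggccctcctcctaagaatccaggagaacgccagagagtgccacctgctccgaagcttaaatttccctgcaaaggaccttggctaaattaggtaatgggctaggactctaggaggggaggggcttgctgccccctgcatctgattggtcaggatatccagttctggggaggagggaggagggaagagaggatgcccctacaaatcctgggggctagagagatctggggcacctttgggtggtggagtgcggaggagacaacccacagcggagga
Klhl41, chr2:69669870-69670169, plus strand: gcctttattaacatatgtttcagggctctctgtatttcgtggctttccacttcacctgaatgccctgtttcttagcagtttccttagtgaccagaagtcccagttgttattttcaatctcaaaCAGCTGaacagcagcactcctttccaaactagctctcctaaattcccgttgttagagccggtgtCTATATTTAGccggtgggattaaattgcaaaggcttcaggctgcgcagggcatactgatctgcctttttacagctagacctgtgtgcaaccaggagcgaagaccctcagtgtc
Cox8b, chr7:140900397-140900696, minus strand: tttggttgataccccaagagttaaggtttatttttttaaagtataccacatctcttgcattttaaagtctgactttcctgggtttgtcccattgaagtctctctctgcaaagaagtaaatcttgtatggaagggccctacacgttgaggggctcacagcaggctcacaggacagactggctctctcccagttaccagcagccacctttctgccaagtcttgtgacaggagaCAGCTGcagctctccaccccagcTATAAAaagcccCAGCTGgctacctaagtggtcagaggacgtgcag
Among these 5 windows, CAGCTG occurred in those of Klhl41 and Cox8b, CTANNNNTAG in that of Klhl41, and TATAAA in those of Cox8b and Myh3. Over all 32851 promoters of this length, 16.3% held CAGCTG, 3.69% held CTANNNNTAG and 13.6% held TATAAA. The wider E-box pattern CANNTG, not marked by itself, occurred in all 5 windows, including that of Myog, which has no capitals. It occurred in 72.3% of all promoters.

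Myog, the factor that commits myoblasts to fuse, was at -7.38, -6.76, -7.05 and -6.23 in homozygotes and at -3.22, -3.64, -3.80 and -2.82 in wild type, and fell by 3.48 ± 0.41 (SE) on the log2 scale (adjusted p = 0.00167). Only 2 homozygous arrays had its probe well above background, and the change was -1.6 with the normexp alternative described further on, so the size is uncertain. The highest homozygous array lay far below the lowest wild-type array, and the heterozygous mean was -5.17 ± 0.92 (SD, n = 4). Tnnc2 fell by 1.80 ± 0.24 (adjusted p = 0.0036). Of these muscle genes, it had the brightest probe. Myot stood at -5.59, -5.77, -5.66 and -5.30 in wild type and was not well above background on any homozygous array. Such a probe has only an approximate bound, here at least 2.42-fold lower. It sets the wild-type mean against the lowest signal that counted as above background on each homozygous array. Some probes with higher signals than that did not count as above background. This bound and every "at least" below can therefore overstate the change, and with normexp Myot had -0.84. The adjusted p of 9.72e-05 tests the signals as measured and not the bound, and so does the adjusted p beside every bound below. Genes given as bounds passed the filter on dim probes without the dimmer genotype. Sln was likewise at least 2.5-fold lower (adjusted p = 0.00716) and Cox8b at least 1.92-fold lower (adjusted p = 0.0097). Myh3 was uneven within wild type, with replicates 1 and 4 at -3.33 and -3.53 and replicates 2 and 3 at -5.86 and -5.38, and homozygous arrays between -7.27 and -6.65. On 2 homozygous arrays it was well above background. It fell by 2.41 ± 0.52 (adjusted p = 0.0465), with -1.27 under normexp, but no longer passed when any of 8 of the 12 arrays was left out, with an adjusted p of 0.157 without wild-type replicate 4. Upstream genes of the same lineage had other values: Pax3 was at -0.02 ± 0.16 and Pax7 at 0.24 ± 0.21 as log2 fold changes, and Myod1, a sister factor of Myog, at 0.15 ± 0.33 (adjusted p = 0.854).

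Among 34 tested heart genes, 3 fell and 1 rose, with a median of 0.15, where 0.864% of all genes fell and 0.487% rose. The members that fell were Sln, also listed with skeletal muscle, Isl1, described with the neurons, and Tecrl, an enoyl-CoA reductase relative whose loss causes arrhythmia. Tecrl was at -4.08, -4.38, -4.23 and -4.27 in homozygotes and at -1.69, -1.71, -1.83 and -1.43 in wild type, and fell by 2.57 ± 0.44 (adjusted p = 0.0159, or 0.0642 without wild-type replicate 4). The groups were tight and far apart, while the 4 heterozygous arrays averaged -3.42 ± 1.19 (SD). Casq2, a calcium store protein of heart muscle, rose by 1.04 ± 0.13 (adjusted p = 0.00245), but it had -0.07 with normexp background correction of the median spot signal and an offset of 50, so its direction changed with that alternative. Myh7 and Nkx2-5, a heart myosin and a heart transcription factor, had log2 fold changes of -0.03 ± 0.57 and 0.48 ± 0.44.

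A few neuronal genes fell. Of 32 tested proneural, sensory and motor neuron factors, 5 fell, none rose and 27 were lower in value, with a median log2 fold change of -0.55. Over all 22568 genes, 10500 were lower in value and 0.864% fell. Median levels of these 32 were -0.67, -0.55, -0.48 and -0.49 on the homozygous arrays and 0.28, -0.33, -0.10 and 0.06 on the wild-type arrays, so the genotypes did not overlap. Neurod4, a basic helix-loop-helix factor of differentiating neurons, was at -5.16, -6.50, -5.84 and -5.39 in wild type and not well above background on any homozygous array. It was at least 2.20-fold lower (adjusted p = 0.0466), a call lost without any of 8 arrays (0.157 without wild-type replicate 4). Pou4f1, a factor of sensory neurons, was at -3.24, -2.83, -3.06 and -3.20 against -1.97, -2.56, -2.14 and -2.25 in wild type and fell by 0.85 ± 0.15 (adjusted p = 0.0172, or 0.0596 without wild-type replicate 1). Isl1, a factor of motor and sensory neurons and also of the arches and heart, fell by 0.80 ± 0.15 (adjusted p = 0.0307, or 0.101 without wild-type replicate 4). The other members that fell were Lhx9 and the proneural factor Neurog2, while Neurog1 had -0.26 ± 0.18 (adjusted p = 0.471).

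Of 35 genes of early neuron structure and function, 1 fell and 25 were lower in value (10500 of all 22568 genes), with a median of -0.32. The list's levels overlapped, at -0.35, -0.35, -0.35 and -0.18 on the homozygous arrays and 0.19, -0.20, -0.10 and 0.03 on the wild-type arrays. That member was Syt1, the calcium sensor of synaptic vesicles, which was at -5.17, -4.92, -4.74 and -4.87 in homozygotes and -3.98, -4.46, -4.35 and -3.85 in wild type. It fell by 0.77 ± 0.17 (adjusted p = 0.0465), a call lost without any of 9 arrays (0.154 without wild-type replicate 4). Among 12 tested channels and transporters of neurons, 3 fell and 2 rose, where 0.864% of all genes fell and 0.487% rose. Scn3a, a voltage-gated sodium channel, fell by 1.59 ± 0.22 (adjusted p = 0.00478), and a further probe gave -2.05. Grik3, a kainate-type glutamate receptor, rose by 1.18 ± 0.16 (adjusted p = 0.00407), with homozygous levels of -1.21, -1.42, -1.27 and -1.49 all above wild-type levels of -2.41, -2.62, -2.42 and -2.65. Genes of GABA neurons went both ways: Gad2, which makes the transmitter, fell by 1.11 ± 0.18, and Slc32a1, which loads it into vesicles, rose by 1.11 ± 0.24. Neither passed with normexp (adjusted p of 0.336 and 0.472). Olig3, a factor of dorsal neural tube progenitors, fell by 1.77 ± 0.25 (adjusted p = 0.00531). None of 29 listed spinal cord progenitor genes passed, and their median was -0.13.

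In axon guidance, single ligands and receptors fell and no listed member rose, while 0.864% of all genes fell and 0.487% rose. In all, 3 of 7 class 3 semaphorins, secreted cues for axons and migrating crest, fell: Sema3d, Sema3a and Sema3c. The other 4 lay between -0.41 (Sema3e) and 0.13 (Sema3b). Sema3a was at -1.36, -1.50, -1.05 and -0.85 in homozygotes and at 0.15, 0.09, 0.02 and -0.03 in wild type, and the heterozygous mean of -0.62 ± 0.19 (SD) lay between. A further Sema3a probe had -0.75 and did not pass (adjusted p = 0.0778). Sema3d was at -6.21, -6.45, -5.72 and -5.78 against -4.55, -4.39, -4.07 and -4.0. None of 23 neuropilins, plexins and other semaphorins passed, a count near what 1.35% of all genes would give, with a median of 0.17. The value with the smallest p was 0.83 ± 0.19 for Sema4g (adjusted p = 0.0531). Of 12 Eph receptors, 2 fell. Epha3 was at -7.08, -6.64, -6.29 and -5.48 in homozygotes and -3.51, -4.74, -4.38 and -3.69 in wild type, and was well above background on 3 homozygous arrays. Epha7 was at -1.09, -0.77, -0.82 and -0.62 against 0.36, 0.19, 0.02 and 0.08, and its further probes had -1.32 and -0.38, the latter with an adjusted p of 0.114. No ephrin, of 8 tested, passed (Efnb1 had 0.20 ± 0.13, adjusted p = 0.453). Of 18 Slit, Robo, netrin and Unc5 genes, 2 fell. Slit2, a repellent ligand, fell by 0.92 ± 0.16 (adjusted p = 0.0155, or 0.0522 without wild-type replicate 1). Unc5c, a netrin receptor, fell by 0.79 ± 0.16 (adjusted p = 0.0398, lost without any of 7 arrays, 0.116 without wild-type replicate 1). The Slit receptor Robo1 had a value of -0.07 ± 0.15.

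Cell adhesion genes fell in larger number. Of 27 cadherins, protocadherins and L1 family members, 8 fell and 1 rose, with a median of -0.26. The shares over all genes were 0.864% that fell and 0.487% that rose. Chl1, an L1 family molecule of growing axons, was at -6.60, -7.01, -6.41 and -6.47 in homozygotes and at -3.76, -5.14, -4.10 and -3.59 in wild type, and fell by 2.47 ± 0.31 (adjusted p = 0.00259), with -1.80 on a further probe. It was well above background on 3 homozygous arrays and had -1.17 under normexp. Pcdh10 was at -6.09, -5.82, -5.33 and -5.61 against -3.51, -3.87, -4.14 and -3.78, and fell by 1.89 ± 0.21 (adjusted p = 0.00139). Cdh7, a cadherin of migrating crest in birds, was not well above background on any homozygous array, and lay at least 1.96-fold lower there (adjusted p = 0.000269). The others that fell were Cdh10, Cdh11, Pcdh17, Pcdh19 and Nrcam, by 0.54 to 1.34, and Cdh13 rose by 1.17. Cdh22, a cadherin outside the list, rose by 1.25 ± 0.23 (adjusted p = 0.0231, or 0.0858 without wild-type replicate 4). Flrt1, a leucine-rich repeat adhesion protein, rose by 1.14 ± 0.20 (adjusted p = 0.0189, or 0.0722 without wild-type replicate 4), with 2.16 and 1.18 on further probes.

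**Figure D2:**
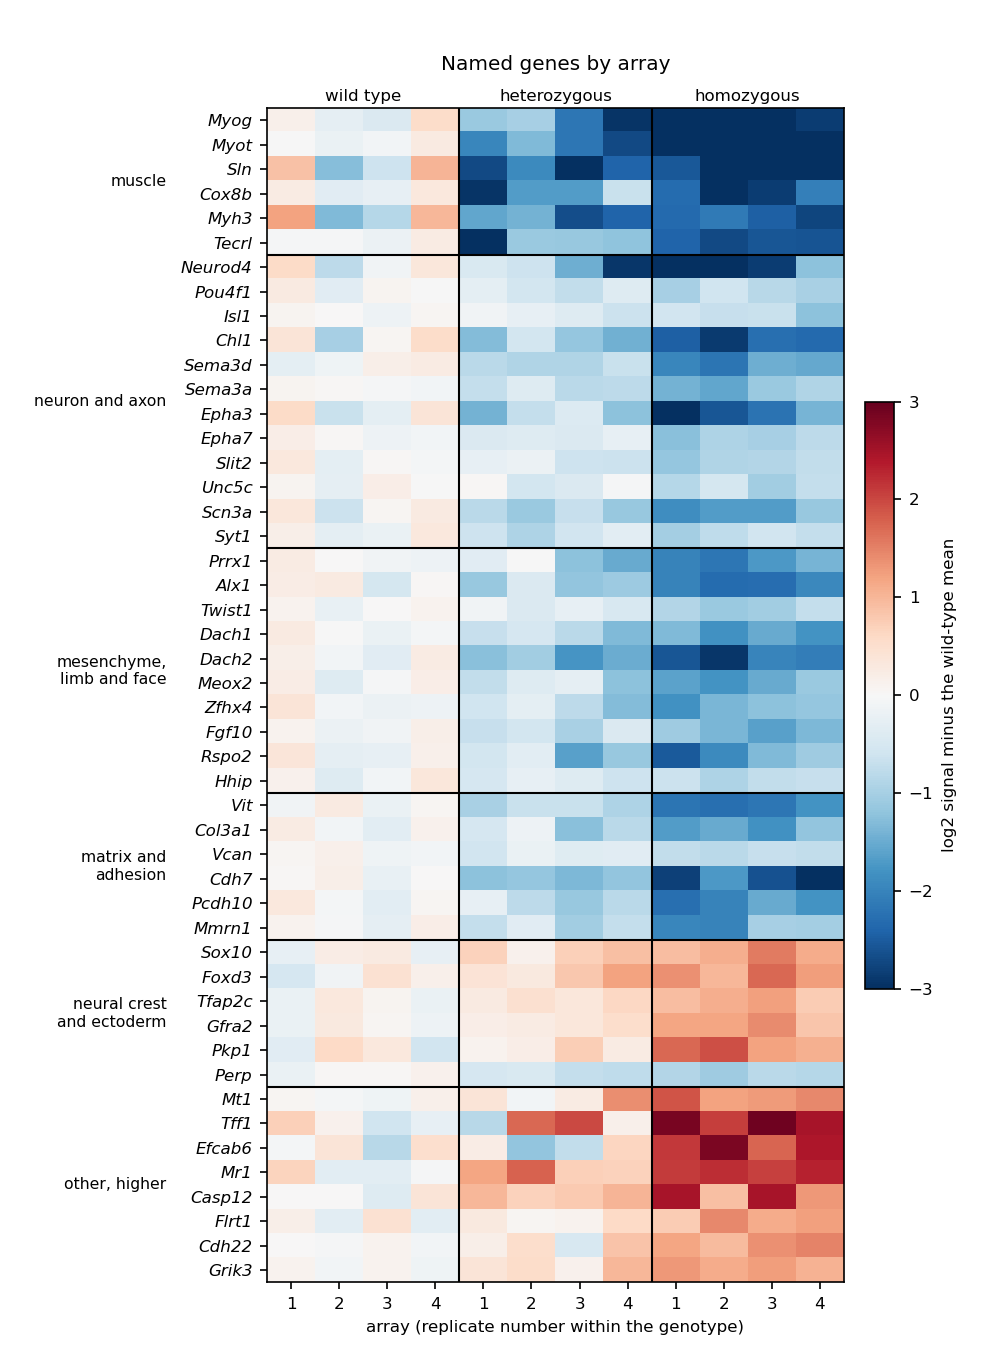
Level of 48 named genes on each of the 12 arrays as the scaled log2 signal minus the wild-type mean of that gene, with colours held at -3 and 3, and arrays in columns by genotype and replicate number. Genes are grouped by role, and levels that were not well above background are drawn as measured. Muscle, neuron, mesenchyme and matrix genes are blue in the 4 homozygous columns, and Sox10, Foxd3, Tfap2c and the genes at the foot are red there.

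Some genes of facial and limb mesenchyme fell. Of 37 tested pharyngeal arch and facial genes, 4 fell and none rose, 29 were lower in value and the median was -0.29. Of 26 limb bud genes, 4 fell and none rose, with a median of -0.31. For comparison, 0.864% of all 22568 genes tested fell and 10500 were lower in value. Alx1, a homeobox factor needed for the frontonasal face, was at -3.07, -3.36, -3.34 and -2.99 in homozygotes and at -0.85, -0.79, -1.60 and -1.02 in wild type, and fell by 2.13 ± 0.21 (adjusted p = 0.000602). Prrx1, a homeobox factor of arch and limb mesenchyme, was at -1.69, -1.84, -1.39 and -1.07 against 0.57, 0.35, 0.21 and 0.18 and fell by 1.82 ± 0.30 (adjusted p = 0.0129, or 0.0522 without wild-type replicate 1). Neither gene overlapped between the genotypes, as for 304 of the 305 that passed and 3177 of all 22568 genes tested. Both heterozygous means, -2.02 ± 0.35 for Alx1 and -0.45 ± 0.72 (SD) for Prrx1, lay between the others. Twist1, a mesenchymal factor of crest and limb, was at 0.72, 0.48, 0.56 and 0.87 against 1.69, 1.36, 1.61 and 1.71 and fell by 0.93 ± 0.12 (adjusted p = 0.00393). Outside these lists, Dach1, a transcription cofactor of limb and eye, fell by 1.61 ± 0.18 (adjusted p = 0.00139), and its relative Dach2 fell by 2.39 ± 0.22 (adjusted p = 0.000485), with -2.17 and -2.10 on further Dach2 probes. Zfhx4, a zinc finger homeobox factor, fell by 1.39 ± 0.22 (adjusted p = 0.0104), with -0.87 on a further probe that did not pass (adjusted p = 0.252). Nr2f1, a nuclear receptor, also fell, by 0.93 ± 0.17. Foxc1, a forkhead factor of the same mesenchyme, had -0.63 ± 0.16 and did not pass (adjusted p = 0.0957).

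Single members of the signalling pathway lists fell. Over all genes 1.35% passed, so a list of this size with 0 or 1 call says little about its pathway. Fgf10, a growth factor of limb and otic outgrowth, was at -3.63, -3.93, -4.19 and -3.91 in homozygotes and at -2.46, -2.74, -2.68 and -2.38 in wild type, and fell by 1.35 ± 0.15 (adjusted p = 0.00128). Of 29 Fgf pathway genes 3 fell, and the others were Etv1, an Fgf-induced factor that fell by 0.64 ± 0.10 (adjusted p = 0.0104), and Flrt2. Of 29 otic and placode genes, Fgf10 alone passed. Rspo2, an amplifier of Wnt signals in limb and face, was at -4.59, -3.97, -3.38 and -3.13 against -1.71, -2.34, -2.31 and -1.90. It was the only one of 50 Wnt pathway genes to pass (fell by 1.70 ± 0.34, adjusted p = 0.0353, lost without any of 7 arrays, 0.116 without wild-type replicate 4). Hhip, an inhibitor that binds Hedgehog ligands, was likewise the only one of 18 in its pathway, and fell by 0.75 ± 0.15 (adjusted p = 0.0342, lost without any of 7 arrays, 0.113 without homozygous replicate 2). A further Hhip probe had -0.48 and did not pass (adjusted p = 0.273). No member passed among 39 Bmp and Tgf-beta genes (median -0.01), 24 Notch genes (median -0.17) or 20 retinoic acid genes (median -0.04). Their smallest p values belonged to Bmp6 (0.88 ± 0.21), Hes5 (-0.74 ± 0.18) and Aldh1a3 (-1.32 ± 0.31), with adjusted p of 0.0656, 0.0788 and 0.0642.

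The neural crest list split. Of 35 tested genes of crest specification and migration, 3 rose and 2 fell, and the median was -0.06. The shares over all genes were 0.487% that rose and 0.864% that fell. Sox10, a factor of migrating crest and glia, was at 0.28, 0.46, 0.92 and 0.47 in homozygotes and at -0.90, -0.41, -0.37 and -0.89 in wild type, a rise of 1.17 ± 0.20 (adjusted p = 0.0155, or 0.0633 without wild-type replicate 4). Foxd3, an early crest factor, was at -1.11, -1.48, -0.74 and -1.22 against -2.97, -2.58, -2.01 and -2.31 and rose by 1.33 ± 0.24 (adjusted p = 0.0211, or 0.0673 without homozygous replicate 3). Tfap2c, an AP-2 factor of crest and surface ectoderm, rose by 1.01 ± 0.15 (adjusted p = 0.00655). Gfra2, a receptor of GDNF family ligands outside the list, was at -0.54, -0.53, -0.31 and -0.89 against -1.94, -1.44, -1.66 and -1.87 and rose by 1.16 ± 0.14 (adjusted p = 0.00254). No array of either genotype crossed into the other's range for these 4 genes. The same held for 304 of the 305 genes that passed, which choosing by a small p favours, and for 3177 of all 22568 genes tested. Other crest genes had small values: Sox9 had -0.15 ± 0.12, Snai2 -0.05 ± 0.15, Tfap2a 0.19 ± 0.13 and Ets1 -0.05 ± 0.15. Besides Twist1, Zic1 fell, by 1.53 ± 0.26 (adjusted p = 0.018, or 0.0873 without wild-type replicate 4). Zic1, a zinc finger factor of the dorsal neural tube, had no usable spot on wild-type replicate 2, and its further probe had -0.10, so the probes of this gene disagreed.

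Surface ectoderm genes leaned higher. Of 28 tested, 3 rose, 1 fell and 25 were higher in value, with a median of 0.32, and their median level was 0.66, 0.61, 0.16 and 0.07 on the homozygous arrays and -0.20, 0.21, 0.14 and -0.14 on the wild-type arrays. Among all 22568 genes, 12068 were higher in value. The genotypes overlapped, and homozygous replicates 1 and 2, which had the most yolk sac signal, were also highest here. Pkp1, a desmosome protein, rose by 1.48 ± 0.27 (adjusted p = 0.0228, or 0.0792 without homozygous replicate 2), and Cldn3, a tight junction protein, by 0.72 ± 0.11. With normexp, Pkp1 had 0.24 and Cldn3 0.60. Perp, another desmosome protein and a p53 target, went the other way. It was at -0.48, -0.66, -0.40 and -0.46 in homozygotes and at 0.19, 0.44, 0.43 and 0.53 in wild type, and fell by 0.90 ± 0.11 (adjusted p = 0.00176), and was the only one of 29 p53 targets to pass. Dmrta2, a forebrain factor, was the only one of 23 eye and forebrain genes that passed. It fell by 1.27 ± 0.24 (adjusted p = 0.0234, or 0.0907 without wild-type replicate 4). Over all genes 1.35% passed, so the single calls among p53 targets and forebrain genes say little about those lists.

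Genes of the trunk axis were lower in value with few calls. Of 36 presomitic and segmentation genes, 2 fell and none rose, with a median of -0.28, where 0.864% of all genes fell. Meox2, a homeobox factor of somites and limb muscle, was at -1.26, -1.45, -1.15 and -0.75 in homozygotes and at 0.58, -0.04, 0.31 and 0.55 in wild type, and fell by 1.51 ± 0.22 (adjusted p = 0.00738). Cdx1, a caudal factor upstream of Hox genes, fell by 0.81 ± 0.16 (adjusted p = 0.0371, lost without any of 7 arrays, 0.113 without wild-type replicate 4). Of 23 anterior and middle Hox genes, 22 were lower in value (10500 of all 22568 genes), with a median of -0.51, and none passed. Their median levels were -0.57, -0.50, -0.60 and -0.34 in homozygotes and 0.25, -0.34, -0.04 and 0.05 in wild type, where wild-type replicate 2 reached the homozygous range. Hoxd1 had the smallest p of these (-1.29 ± 0.32, adjusted p = 0.0765). Of 6 posterior Hox genes tested, 5 were lower in value and none passed. In the notochord and floor plate list the one member that fell was Arg1, an arginase better known from the urea cycle, by 0.74 ± 0.14 (adjusted p = 0.0238, lost without any of 7 arrays, 0.0775 without homozygous replicate 3).

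Extracellular matrix genes moved mostly down where they moved. Of 45 tested, 6 fell and 1 rose, although the median was 0.06, where 0.864% of all genes fell and 0.487% rose. Vit (vitrin), a matrix protein of the inner ear and neural tube, had the smallest adjusted p of any named gene here (4.76e-05) and fell by 2.11 ± 0.14. Its levels were -5.18, -5.26, -5.17 and -4.77 in homozygotes and -3.10, -2.72, -3.19 and -2.94 in wild type, with a heterozygous mean of -3.79 ± 0.16 (SD). Col3a1, a fibrillar collagen of mesenchyme, was at 0.77, 0.93, 0.62 and 1.26 against 2.69, 2.37, 2.12 and 2.58 and fell by 1.54 ± 0.22 (adjusted p = 0.00632). Another 3 act on hyaluronan: Vcan, the proteoglycan versican, fell by 0.75 ± 0.10, its synthase Has2 by 0.92 ± 0.13 and the link protein Hapln1 by 0.82 ± 0.13, but 2 further Vcan probes had -0.45 and -0.24. Col4a2, a basement membrane collagen, rose by 0.64 ± 0.13. Mmrn1, an endothelial and platelet protein, fell by 1.49 ± 0.25 (adjusted p = 0.0146, or 0.0604 without wild-type replicate 4), while none of 32 endothelial genes passed (Fli1 had -0.55 ± 0.15, adjusted p = 0.116). Fabp4, a fatty acid carrier of endothelium and fat, was at least 2.30-fold lower (adjusted p = 0.00286). Gm5127, a gene known by its model name only, fell by 2.42 ± 0.42 (adjusted p = 0.0168, or 0.0662 without wild-type replicate 4), with -2.79 on a further probe.

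**Figure D3:**
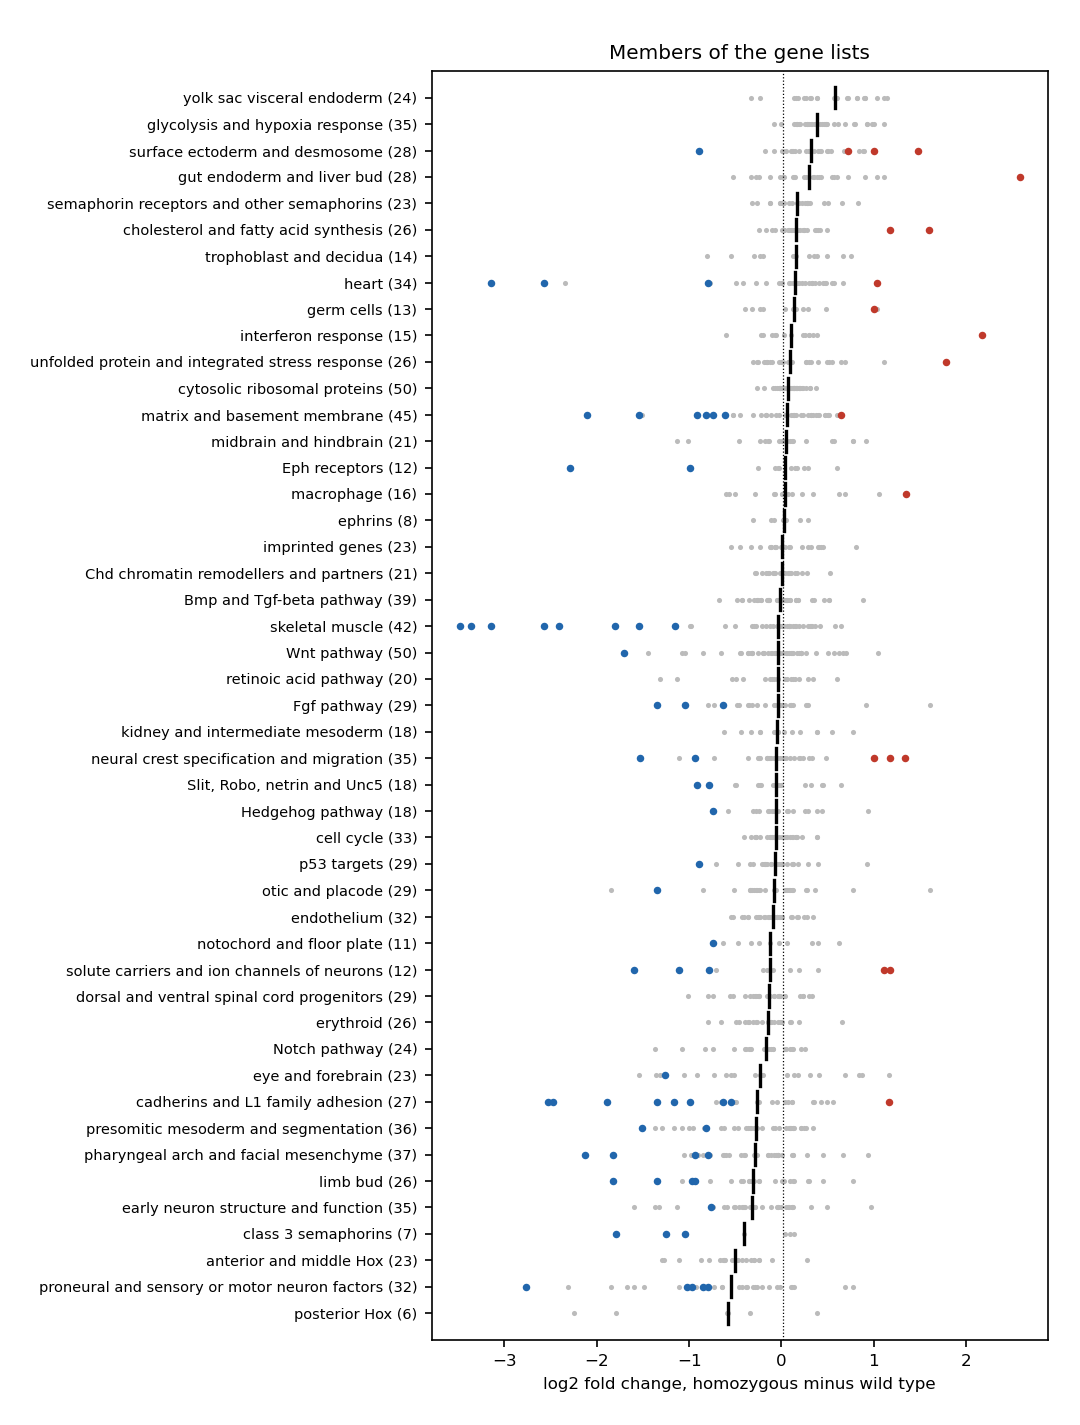
Log2 fold changes (homozygous minus wild type) of the tested members of 47 gene lists, ordered by the list median (black bars), with the number tested in brackets. Blue and red points passed the threshold over all genes, grey points did not, and the dotted line is the median of all genes (0.02). Of the 1039 listed genes tested, 54 fell and 16 rose, against 195 and 110 of all 22568. In all, 28 of the 47 medians lie below 0.

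Among the named genes that rose, Mt1, the metal-binding metallothionein, had the brightest probe. It was at 4.00, 3.30, 3.37 and 3.54 in homozygotes and at 2.15, 2.04, 1.97 and 2.24 in wild type, a rise of 1.45 ± 0.27 (adjusted p = 0.0211, lost without any of 7 arrays, 0.0652 without wild-type replicate 4), and 1.5 with normexp background correction. Acsbg1, a long-chain acyl-CoA synthetase, was at -3.04, -2.69, -2.02 and -2.41 in homozygotes and at -4.03, -4.21, -4.39 and -3.94 in wild type, and rose by 1.6 ± 0.19 (adjusted p = 0.00167). The synthesis enzyme Hmgcs1 had a value of 0.10 ± 0.15. Casp12, a caspase of the endoplasmic reticulum, was at -3.85, -5.41, -3.83 and -5.02 against -6.31, -6.31, -6.70 and -5.93 and rose by 1.78 ± 0.32 (adjusted p = 0.0204, or 0.0652 without wild-type replicate 1). Homozygous replicates 1 and 3 were the high ones, and both lay at position 3. The change of Casp12 was 0.29 with normexp. No other of 26 genes of the unfolded protein response passed, and their median was 0.09.

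The increases with the highest fold had dim probes. Tff1, a secreted trefoil peptide of the gut, was not well above background on any wild-type array and at least 2.79-fold higher in homozygotes (adjusted p = 0.0408, lost without any of 8 arrays, 0.137 without wild-type replicate 4). Efcab6, an EF-hand protein, was at least 2.83-fold higher (adjusted p = 0.0198, or 0.0722 without homozygous replicate 2). Mr1, which presents vitamin metabolites to T cells, was at least 1.82-fold higher (adjusted p = 0.00167), but had -0.10 with normexp background correction, and no other of 15 interferon response genes passed. Mrc1, the macrophage mannose receptor, rose by 1.35 ± 0.29 (adjusted p = 0.0457, lost without any of 8 arrays, 0.158 without wild-type replicate 4). It was the only one of 16 macrophage genes to pass, against 1.35% of all genes. Csf1r, the defining receptor of macrophages, had 0.11 ± 0.12. Rasl10a, a Ras-like protein, rose by 1.73 ± 0.17 (adjusted p = 0.000647), with homozygous levels from -5.06 to -4.60 and wild-type levels from -6.76 to -6.23. Extl1, an exostosin-like glycosyltransferase, and Vstm2l rose by 1.47 ± 0.30 (0.125 without wild-type replicate 4) and 1.31 ± 0.26 (0.114 without homozygous replicate 2). With normexp, the changes of Tff1, Efcab6, Rasl10a and Extl1 were 0.10, 0.12, 0.15 and 0.31. Those of Mrc1 and Vstm2l were 0.58 and 0.90.

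Most of the increases did not pass under an alternative signal. This alternative, called normexp here, changed the input (the median spot signal), the background correction and an added offset of 50 together, and the offset shrinks changes of dim probes. With it 91 genes passed, 9 higher and 82 lower, and the median over all genes moved from 0.02 to -0.10. Of the 110 increases 9 passed both ways and 98 kept their sign, and of the 195 decreases 75 passed both ways and 195 kept their sign. The named increases that passed both ways were Mt1, Grik3, Sox10, Gfra2, Flrt1 and Tfap2c. Of the 63 named genes that passed, 25 lost the call with normexp, among them Tff1, Efcab6, Mr1, Casp12, Rasl10a, Acsbg1, Pkp1, Extl1, Mrc1, Foxd3, Vstm2l, Cdh22, Casq2, Myot, Sln, Neurod4, Cox8b, Cdh7, Fabp4, Sema3d, Pcdh10, Isl1, Syt1 and Cdx1. Among list members given beyond these 63, the calls of Gad2, Slc32a1, Cdh10, Cdh11, Cdh13, Nrcam, Lhx9, Nr2f1, Flrt2, Hapln1, Col4a2, Cldn3, Myf6 and Klhl41 were also lost with normexp. The calls of Tff1, Mrc1, Vstm2l, Neurod4 and Unc5c were lost when slide was a block. Array position as a block, which compares homozygous replicates 1 and 3 with wild-type replicate 3 only, lost most of the 63 calls. Title number as a block left 9 (Rasl10a, Acsbg1, Myot, Cdh7, Dach2, Fabp4, Sema3d, Pcdh10 and Vit).

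**Figure D4:**
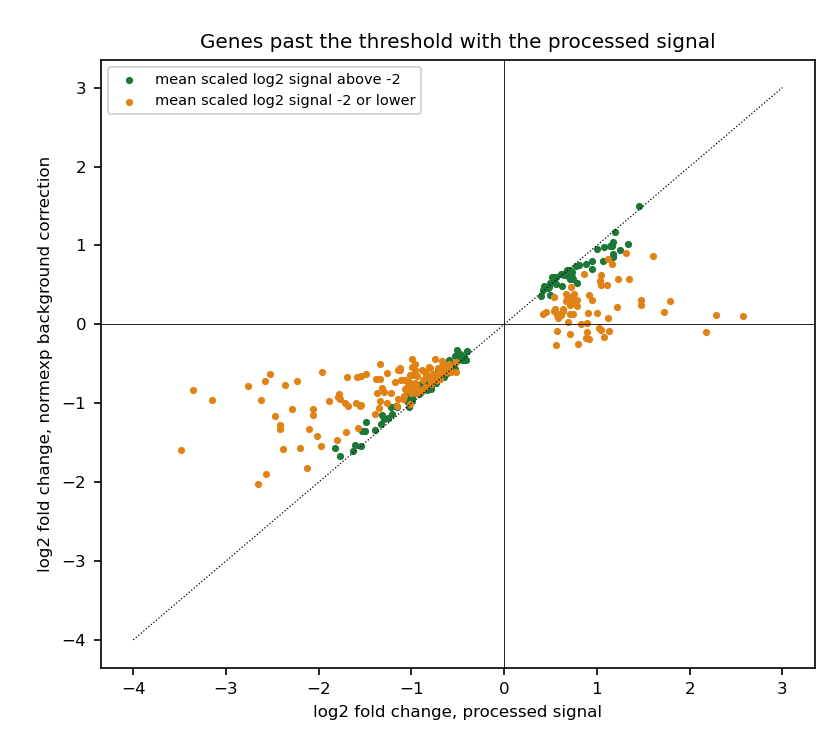
Log2 fold changes of the 305 genes past the threshold, with the processed signal (horizontal) and with normexp background correction (vertical), and the dotted line of equal values. Green points have a mean scaled log2 signal above -2 and lie near the line, while orange points are dimmer and lie nearer to 0 on the vertical axis. Of the 110 increases, 12 have a value below 0 on the vertical axis, and none of the 195 decreases lies above 0.

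Some lists leaned one way without a call. Of 35 genes of glycolysis and the hypoxia response, 33 were higher in value (12068 of all 22568 genes), with a median of 0.38. None passed, against 1.35% of all genes. Their median levels were 0.36, 0.32, 0.37 and 0.49 on the homozygous arrays and 0.02, -0.01, 0.01 and -0.05 on the wild-type arrays. These ranges did not overlap, but the heterozygous arrays were at 0.20, -0.08, 0.07 and 1.01, so that genotype overlapped wild type and its replicate 4 lay above every homozygous array. Pdk1, a kinase that diverts pyruvate from mitochondria, had the smallest p (0.79 ± 0.21, adjusted p = 0.0981), and Pfkl, Pgk1 and Slc2a1 had 0.78 ± 0.21, 0.46 ± 0.17 and 0.20 ± 0.16. No member passed among 33 cell cycle genes (median -0.06), 50 cytosolic ribosomal proteins (median 0.08), 23 imprinted genes (median 0.01), 21 Chd remodellers and partners (median 0.00) or 26 erythroid genes (median -0.15). Chd7 itself was not among the 21, since no probe was linked with it. The values by array are plotted for glycolysis, muscle, neuron factors, Hox, neural crest, yolk sac, erythroid and heart genes.

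**Figure D5:**
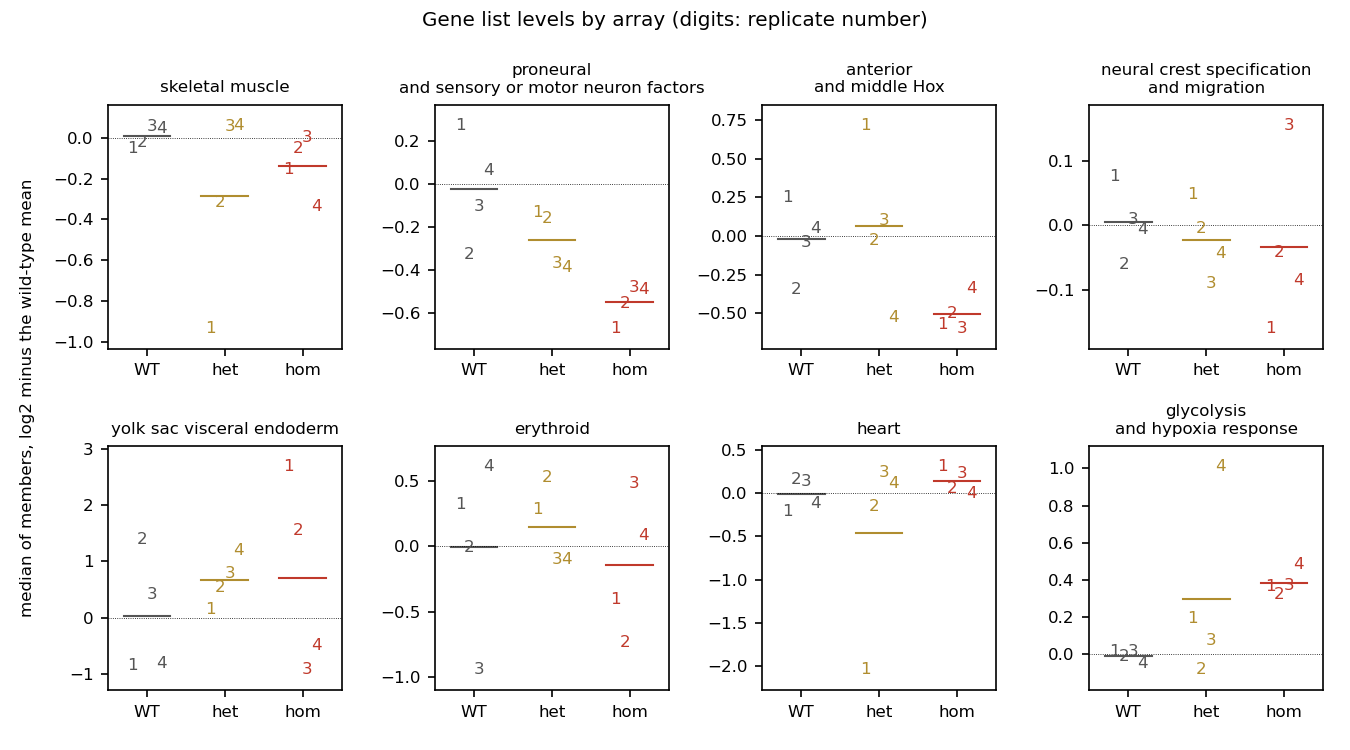
Median level of the tested members of 8 gene lists on each array (digits give the replicate number), as scaled log2 signal minus the wild-type mean of each gene, by genotype, with a line at the mean of the 4 arrays. Homozygous and wild-type arrays are apart for glycolysis (0.32 to 0.49 against -0.05 to 0.02) and for neuron factors, and they overlap for yolk sac (-0.93 to 2.69 against -0.86 to 1.39) and erythroid genes.

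The smallest adjusted p of all belonged to a probe that the gene table did not name, and it is given by its identifier, chosen after its values were seen. ENSMUST00000001667 was at -3.53, -3.86, -3.97 and -3.85 in homozygotes and at -1.30, -1.11, -1.24 and -0.94 in wild type, and fell by 2.65 ± 0.13 (adjusted p = 3.17e-06). NM_001081417, a bright probe and also unnamed by the table, was at 1.88, 1.82, 2.02 and 2.04 against 3.70, 3.22, 3.52 and 3.84 and fell by 1.63 ± 0.14 (adjusted p = 0.000269). For both, the heterozygous arrays lay between the other genotypes without overlap, at -2.62 to -2.22 and at 2.59 to 3.01.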

How the data were processed

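Labelled RNA of 12 embryos was measured in 1 colour (Cy3) on Agilent arrays. Scans were read out by Agilent Feature Extraction 10.7.3.1, and limma was also used, per the submitters' processing notes. The deposited intensity values used are the processed signal of each spot, corrected for background within the array and not scaled between arrays, per the file headers. The authors' deposited value table held the same intensities.

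From these, log2 signal minus the array's 75th percentile over non-control probes was computed, without spots marked non-uniform or outlying. Probes were named through their unversioned transcript accession in a RefSeq table of GRCm38.p6 (26055 of 39429 probes), and the brightest probe of a gene was kept. To be tested, a gene had to be well above background on every array of 1 or more genotypes. A mean for each of 3 genotypes was fitted to 12 arrays by lmFit and eBayes of limma 3.58.1 (R 4.3.3), read as homozygous minus wild type, with Benjamini-Hochberg adjustment. For probes below background on all arrays of a group, folds are approximate bounds. They use the mean of normalized log2 values of the brighter group. Per array of the dimmer group, they use the higher of the lowest signal above background and the probe's own.

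Genes were named by rule: the 12 largest changes in each direction with a symbol and no overlap, the 8 largest with a mean above -2, the 5 largest that also passed with normexp, and for each of 47 lists the 2 passing members with the lowest p, or else 1 as a value. Other list members that passed, and genes given as values for context, were chosen after their values were seen. Results on some genes are not reported here. Members and lists were chosen with earlier results of these data known. Alternatives were normexp (offset 50, on the median spot signal, the column the files hold), quantile, median and other scaling, the value table, 2 filters, probe handling, slide, position or title number as a block, other fits, and each array left out. The position 3 values and the joint exclusion of arrays were added after seeing the data. The script was tested on simulated data. Figures used matplotlib 3.10.9. The number of arrays limits precision, and p-values measure the spread between these embryos.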

Additional observations from a re-analysis of the deposited data

Results flagged for a closer look

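In 7 of 254 groups of 4 arrays examined, 1 array stood far from the other 3, where chance gives about 1 in 20 groups. Among single genes, wild-type replicate 2 was high for the mannose receptor Mrc1 (-3.92), wild-type replicate 1 was high for the homeobox factor Zfhx4 (-0.0090), and homozygous replicate 2 was low for the ribosomal protein Rpl21 (-0.46). Among the median levels of lists, wild-type replicate 2 was low for class 3 semaphorins (-0.10) and wild-type replicate 1 was high for matrix genes (0.028). Homozygous replicate 4 was high for early neuron genes (-0.18), and homozygous replicate 2 was low for the unfolded protein response (-0.055). The Mrc1 value lay toward the homozygous levels and the Zfhx4 value away from them.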

How the results depend on the processing

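The 305 calls (110 higher, 195 lower, 132 of at least 2-fold) changed with the signal used, with position as a block and with single arrays. With normexp, which changed the signal column, the background correction and the offset together, they numbered 91 (9 higher, 82 lower, 47 of at least 2-fold), with no filter on dim probes 188 (52 higher), with array position as a block 20 (3 higher, 17 lower, 20 of at least 2-fold) and with title number as a block 19 (4 higher, 15 lower, 19 of at least 2-fold). The title number is a pairing the labels do not explain, and of the homozygous arrays only replicates 2 and 3 share theirs with other arrays. Array weights gave 544 (226 higher, 318 lower), and a fit of only the 8 arrays gave 193 higher of 451. Leaving out single arrays gave 112 to 447 in all, 29 to 187 higher, 81 to 260 lower and 71 to 156 of at least 2-fold. Without homozygous and heterozygous replicates 1 together, 149 passed (36 higher, 113 lower, 92 of at least 2-fold). Quantile, median and other scalings, the value table, the stricter filter, the treatment of probes, slide as a block and another variance model gave 240 to 335. Of the 110 increases 98 kept their sign with normexp. Among the named genes, signs reversed for Mr1 (-0.10) and Casq2 (-0.073) with normexp and for Car2 (0.088), which had not passed, with position as a block. Of the 63 named calls, 33 held with each of 12 arrays left out. The signed median change of the 305 was 0.81 with position as a block and 0.92 with title number as a block, against 0.92 in the fit reported, and both blocks leave fewer degrees of freedom. For the other settings the cause was not tested. Dim probes limit the sizes of change, since 66 of the 110 increases and 118 of the 195 decreases had a mean signal of -2 or lower.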

Other observations

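Several genes outside the lists passed the threshold and are named here after their values were seen. Hgf, the scatter factor of muscle precursors, was not well above background on any homozygous array and at least 2.47-fold lower (adjusted p = 0.000837). Other secreted growth factors fell: Bdnf, a neurotrophin, by 1.05 ± 0.13 (SE), Pdgfc by 1.03 ± 0.14 and the lymphatic factor Vegfc by 1.02 ± 0.12, and so did the neurotrophin receptor Ntrk3, by 0.57 ± 0.12. Leucine-rich repeat proteins of neurons went both ways, as Slitrk6 fell by 2.20 ± 0.19, Lrrn3 fell by 2.02 ± 0.27 and Slitrk1 fell by 1.26 ± 0.12, while Lrrc4b rose by 0.77 ± 0.13 and Rtn4rl1 by 0.75 ± 0.12. Lin28b, an RNA-binding protein that blocks let-7 maturation, had a bright probe and fell by 0.83 ± 0.10 (adjusted p = 0.00167). Of these genes, Hgf, Bdnf, Ntrk3, Slitrk1, Lrrc4b and Rtn4rl1 did not pass with normexp background correction.

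On the X chromosome, 17 of 547 tested genes passed and all 17 fell, a share of 3.11%, the highest of the chromosomes, with 2.74% on chromosome 3 next and 0.804% on chromosome 7 lowest. Over autosomes, 100 genes rose and 148 fell. The X-linked genes had a median log2 fold change of -0.07 against 0.00 for 14723 autosomal genes, and -0.14 against -0.07 with normexp. Within slides 1, 2 and 3 the X-linked median was -0.05, -0.06 and -0.14 and the autosomal median -0.03, 0.0046 and 0.02, so the difference was smallest on slide 1. The 17 included Dach2, Pcdh19 (a protocadherin, -0.995), the membrane protein Gpm6b (-1.21), the zinc finger Zfp711 (-0.81) and Itm2a (-0.79). Of these, Gpm6b and Itm2a did not pass with normexp. No test of this share was made.

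By the order of genes in the gene table, 2 of the 118 tested genes nearest to the Chd7 locus passed, both lower, and none rose. Clvs1, the nearest tested gene on its side, fell by 1.39 ± 0.24 (adjusted p = 0.0172), and Epha7 lies 51 tested genes away. The share was 1.69% among these 118, which all carry a symbol. Of the 15274 tested genes with a symbol 265 passed, and of all genes, with or without a symbol, 1.35%.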
